A study of Mus musculus with 20 samples.

Results

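The interleukin 1 (IL-1) family was followed here in mouse corneal epithelium across 4 ages through 10 genes, taken by symbol from a table of 24552 genes. They are 5 ligands (*Il33*, *Il1a*, *Il1b*, *Il18* and *Il1f9*), the antagonist *Il1rn*, the receptors *Il1rl1* and *Il1r1*, the shared receptor subunit *Il1rap* and the decoy receptor *Il1r2*. *Il1f9* is the older symbol of *Il36g*, which encodes IL-36 gamma. Of the 10 genes, 8 reached a mean normalized count of at least 10 and were tested with 11288 genes in all, whereas *Il1b* and *Il1rl1* were too low to test and are given by their reads. The 20 libraries came from naïve, wild-type female C57BL/6J mice, 5 mice at each age, and each library held the epithelium debrided from the 2 corneas of 1 mouse. The ages were 2 to 3 months (the young group), 12 to 13 months, 18 to 19 months and 24 to 25 months. The colony drew on a commercial supplier (Jackson Laboratories), on in-house aging and on National Institute of Aging stock, and which of these each mouse came from is not given in the sources used here.

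IL-1 family ligands act by joining a ligand-binding receptor to an accessory subunit, and the pair recruits MyD88 and IRAK kinases and activates NF-kappaB. Epithelial cells store IL-1 alpha and IL-33 and release them when they are damaged, so that these ligands are known as alarmins. IL-1 beta and IL-18 are made as precursors that caspase-1 cuts, the IL-1 receptor antagonist occupies the type 1 receptor without signalling, and the type 2 receptor binds IL-1 without signalling. In the ocular surface the family is known for its part in the response to wounding, infection and dryness.

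The libraries held 6699383 to 10762360 reads on genes, with a median of 8731333.5. All values below are normalized counts, which are reads divided by the size factor of the library (0.7603 to 1.3343). A gene was called changed where limma, fitted to the log2 values with Benjamini-Hochberg adjustment over the 11288 genes, gave an adjusted p of at most 0.05 and a fold of 1.2 or more. Each fold change is on the log2 scale of the normalized count plus 1 and so understates the change of low genes. All 8 corneal epithelial markers were detected at every age, with a summed normalized count of 449000 to 573100 per library, and 0 of the 8 were called in any comparison. Markers of stromal keratocytes were present too, at 1836 to 4904 in the young libraries and at 374 to 1689 in the aged ones. In bulk tissue, fewer cells of a type and less RNA per cell cannot be told apart.

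The genes lie in a few places in the genome. On chromosome 1 of GRCm38, a receptor cluster of 6 genes runs from *Il1r2* (chr1:40084692-40125230) through *Il1r1* (chr1:40222480-40316201), *Il1rl2* and *Il1rl1* (chr1:40404864-40465418) to *Il18r1* and *Il18rap*, and *Il1rl1* ends 133 bases before *Il18r1* begins. On chromosome 2, *Il1f9* (chr2:24186476-24193567) and *Il1rn* (chr2:24336860-24351491) share a cluster of 6 ligand genes, and *Il1a* (chr2:129299609-129310186) lies near *Il1b* (chr2:129364569-129371164). *Il33* (chr19:29925113-29960718), *Il18* (chr9:50554700-50581841) and *Il1rap* (chr16:26581509-26730128) stand alone. Exons of *Gm14023* overlap those of *Il1a* on the other strand, and the use of strand in counting is not given in the sources used here, so the values of *Il1a* are uncertain to that extent. *Gm14023* averaged 55.9, 42.0, 55.9 and 39.9 from the youngest to the oldest group. *Il1bos* overlaps *Il1b* in the same way with at most 5 reads in a library, and *Gm20319* overlaps *Il1rap* with 0 reads in every library.

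The members called in these data were *Il33* and *Il1r2*, and the 250 bases before their start sites in RefSeq GRCm38.p6 are shown to set the 2 genes beside each other. *Il33* has 2 start sites, which reads from the 3′ end of a transcript cannot separate. The *Il1r2* window lies inside the span of the gene given above, so the gene begins before the start site used here. Capitals mark TATAAA, the core of a TATA box, in *Il33* and CACGTG, an E-box, in *Il1r2*.
*Il33*, start site 1 (chr19:29924863-29925112, plus strand): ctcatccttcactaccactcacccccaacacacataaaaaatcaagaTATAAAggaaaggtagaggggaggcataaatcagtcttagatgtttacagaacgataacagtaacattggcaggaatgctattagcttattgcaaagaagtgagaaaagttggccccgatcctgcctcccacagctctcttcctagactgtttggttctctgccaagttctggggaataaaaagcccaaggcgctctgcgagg
*Il33*, start site 2 (chr19:29945540-29945789, plus strand): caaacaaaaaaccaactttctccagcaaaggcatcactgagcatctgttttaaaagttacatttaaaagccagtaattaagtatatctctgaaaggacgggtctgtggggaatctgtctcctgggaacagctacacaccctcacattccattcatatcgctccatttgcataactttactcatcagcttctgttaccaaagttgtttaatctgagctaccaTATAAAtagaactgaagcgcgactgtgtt
*Il1r2* (chr1:40085843-40086092, plus strand): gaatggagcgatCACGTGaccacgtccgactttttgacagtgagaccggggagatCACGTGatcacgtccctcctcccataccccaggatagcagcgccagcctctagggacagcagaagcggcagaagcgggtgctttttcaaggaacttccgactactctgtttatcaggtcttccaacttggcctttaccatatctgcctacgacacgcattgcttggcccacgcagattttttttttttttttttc
The TATAAA of the second *Il33* start site begins at position -29 from the start and that of the first at position -203. On both strands, TATAAA occurred in 12.4% of 32851 promoter windows of this length, TGANTCA (an AP-1 site) in 6.75% and CACGTG in 6.02%. The 3 windows shown did not hold TGANTCA, and the CACGTG was searched for after the *Il1r2* sequence was read. *Il1a*, *Il1b* and *Il18* also held TATAAA, at positions -32, -31 and -175. These matches describe letters only and were not tested against binding or expression.

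*Il33* rose by 18 and 24 months of age. The young libraries had 96.5, 75.7, 105.9, 90.1 and 79.7 normalized counts, and the 12-month libraries had 181.1, 88.1, 111.4, 197.4 and 103.2. The 18-month libraries had 385.4, 105.6, 203.3, 309.1 and 346.2, and the 24-month libraries had 281.8, 256.1, 342.4, 191.4 and 254.1. Every 24-month library lay above every young one, 4 of the 5 18-month libraries did, and 3 of the 5 12-month libraries did. The means were 89.6 ± 12.3, 136 ± 49.4, 270 ± 114 and 265 ± 54.5 (SD, n = 5 each). In limma with Benjamini-Hochberg adjustment, *Il33* was 2.74-fold higher in 18-month vs. 2-month (log2 1.45, 95% interval 0.88 to 2.03, adjusted p = 0.00524) and 2.91-fold higher in 24-month vs. 2-month (log2 1.54, 0.97 to 2.12, adjusted p = 0.00265). Both calls held in all 20 fits that left out 1 library, with adjusted p of 0.000182 to 0.0295 and 0.000292 to 0.015.

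The 12-month level of *Il33* lay between the young and the older groups and was not separated from either. It differed from the young group by log2 0.54 (95% interval -0.04 to 1.11, limma adjusted p = 0.565). From 12 to 18 months the log2 difference was 0.92 (0.34 to 1.49, adjusted p = 0.567), and from 12 to 24 months it was 1.00 (0.43 to 1.58, adjusted p = 0.122). The last of these passed the threshold once 18-month replicate 2 was left out (adjusted p = 0.0456). That library had the lowest *Il33* of its age and the lowest median correlation with the other libraries over genes. Between 18 and 24 months the log2 difference was 0.09 (-0.49 to 0.66, adjusted p = 0.994).

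*Il1r2* changed the other way. This gene encodes the type 2 receptor, a decoy that binds IL-1 without passing on a signal. The young libraries had 184.2, 128.9, 122.4, 35.0 and 115.7 normalized counts, and the 12-month libraries had 29.4, 64.5, 52.5, 26.1 and 51.0. The 18-month libraries had 15.9, 11.7, 18.3, 37.6 and 25.1, and the 24-month libraries had 38.0, 48.0, 19.9, 20.01 and 3.8. Of the young libraries, 4 lay above every aged one, and the remaining one, young replicate 4, lay within the range of each aged group. *Il1r2* was 4.95-fold lower in 18-month vs. 2-month (log2 -2.31, 95% interval -3.37 to -1.25, limma adjusted p = 0.0226) and 5.00-fold lower in 24-month vs. 2-month (log2 -2.32, -3.38 to -1.26, adjusted p = 0.0219). At 12 months the log2 difference was -1.28 (-2.34 to -0.21, adjusted p = 0.397).

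The calls of *Il1r2* were less stable than those of *Il33*. Each was lost in 7 of the 20 fits that left out 1 library, where the adjusted p ran from 0.00376 to 0.0902 at 18 months and from 0.00616 to 0.0844 at 24 months. Leaving out any of young replicates 1, 2, 3 and 5 ended both calls. Leaving out 18-month replicate 1, 2 or 3 ended the first, and leaving out 24-month replicate 3, 4 or 5 ended the second. The log2 difference stayed between -2.69 and -2.10 and between -2.71 and -1.79, below 0 each time.

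**Figure D1:**
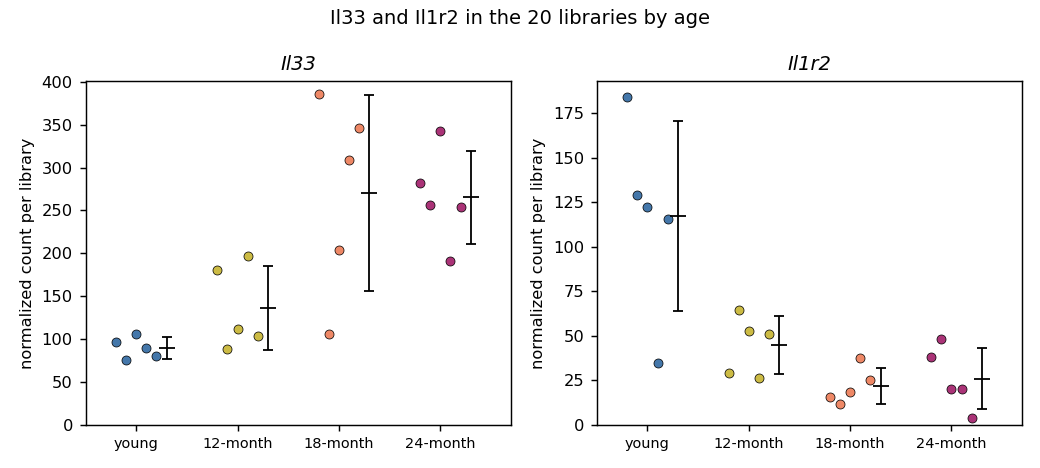
Normalized counts of *Il33* (left) and *Il1r2* (right) in each of the 20 libraries by age group, one point per library, with the mean and SD of the 5 libraries as a black bar. The 24-month *Il33* points all lie above the young ones, and 4 of the 5 young *Il1r2* points lie above every aged library.

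Keratocyte markers were lower in the aged groups as well, and within an age they went with *Il1r2* in some libraries and not in others. The summed normalized count of the 12 markers was 3837, 4904, 4493, 1836 and 3632 in young replicates 1 to 5. The young library with the lowest *Il1r2*, replicate 4, had the lowest keratocyte sum of its age. At 12 months the lowest *Il1r2* (26.1, replicate 4) came with the lowest sum (765.6). The next lowest at that age (29.4, replicate 1) came with the highest sum (1689). Of the 12 markers, *Ptgds* had 532.5 in 12-month replicate 3 and 0 reads in 3 of the 5 12-month libraries. Without *Ptgds* the lowest sum at 12 months would be that of replicate 3, whose *Il1r2* was 52.5. The match in replicate 4 therefore rests on this marker. At 18 months the lowest *Il1r2* (11.7, replicate 2, 10 reads) came with the highest sum (1466). At 24 months the lowest *Il1r2* (3.8, replicate 5, 4 reads) came with the highest sum (1121). The highest *Il1r2* at 24 months (48.0, replicate 2) came with the lowest sum (374). Of the 12 markers, 11 were tested and 6 were called lower at 24 months, with a median log2 difference of -3.09 beside 0.005 over all tested genes. *Col1a1*, which encodes a chain of type I collagen, went from 928.5 ± 329 to 73.1 ± 49.8 (limma adjusted p = 1.12e-08). *Col1a2*, *Col3a1*, *Col5a2*, *Col6a1* and *Dcn*, which encodes the matrix proteoglycan decorin, were the other 5. Of 4 tested conjunctival markers, *Krt4* was called lower at all 3 ages and *Krt19* at 12 and 18 months. The 24-month conjunctival sums were 37420 to 44120, against 42580 to 63550 in the young libraries. The part of these tissues in the *Il1r2* values was not tested.

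**Figure D2:**
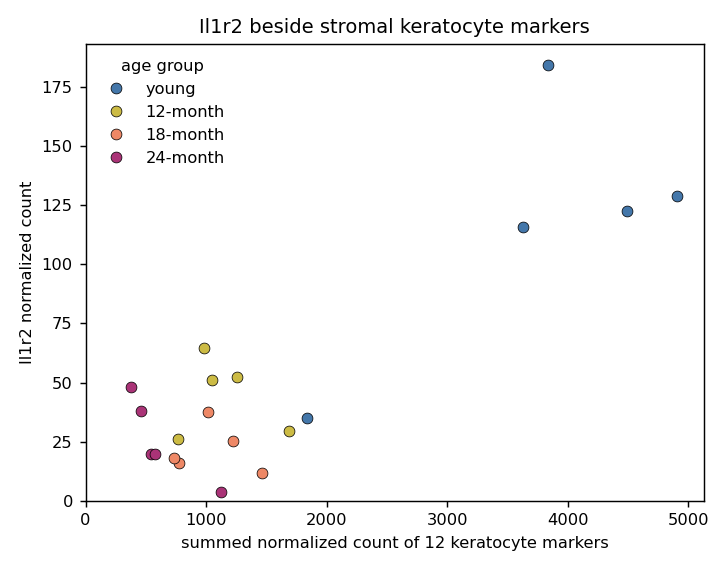
Normalized count of *Il1r2* against the summed normalized count of 12 stromal keratocyte markers, one point per library, coloured by age group. The young libraries with the highest *Il1r2* have keratocyte sums of 3632 to 4904, young replicate 4 lies at 1836 beside the aged libraries, and the 24-month library with the lowest *Il1r2* has the highest sum of its age (1121).

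*Il1a*, the gene of the alarmin IL-1 alpha, was lowest at 12 months without passing the test. The young libraries had 17.5, 90.7, 115.1, 85.8 and 95.8 normalized counts, and the 12-month libraries had 35.8, 38.1, 48.2, 18.0 and 8.9. At 18 months they had 101.2, 38.7, 123.9, 68.1 and 78.3, and at 24 months 70.2, 54.5, 74.7, 99.2 and 129.9. Young replicate 1 stood apart at 17.5 below the other young libraries. The 24-month libraries all lay above every 12-month one, a pattern whose share over all genes was not counted. The log2 difference was -1.39 in 12-month vs. 2-month (95% interval -2.33 to -0.45, limma adjusted p = 0.25), 1.54 in 18-month vs. 12-month (0.60 to 2.48, adjusted p = 0.567) and 1.64 in 24-month vs. 12-month (0.70 to 2.58, adjusted p = 0.122). Without young replicate 1, *Il1a* was called lower in 12-month vs. 2-month (log2 -1.87, adjusted p = 0.0156) and higher in 24-month vs. 12-month (log2 1.64, adjusted p = 0.036). Its differences at 18 and 24 months from the young group were 0.15 (-0.79 to 1.09) and 0.25 (-0.69 to 1.19) and turned below 0, to -0.33 and -0.23, without that library.

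The other ligands gave no call. *Il18*, whose product drives interferon gamma production, had 724.2 to 1161.1 normalized counts in the young libraries and 775.3 to 1098.3 in the aged ones. Its log2 differences from the young group were 0.09 (95% interval -0.17 to 0.34), -0.02 (-0.28 to 0.24) and -0.01 (-0.26 to 0.25) at 12, 18 and 24 months, the narrowest intervals of the 8 tested members. *Il1f9*, an epithelial ligand of the IL-36 receptor, ranged from 184.4 to 1143.3 among the young libraries, with young replicate 1 at the top, and from 146.0 to 585.6 among the aged ones. Its log2 differences were -0.50 (-1.30 to 0.30), -0.55 (-1.35 to 0.25) and -0.17 (-0.98 to 0.63). *Il1b*, the gene of IL-1 beta, was too low to test, with 135 reads over all 20 libraries. Its normalized counts were 35.1, 0.0, 3.7, 15.9 and 12.3 in the young libraries and at most 23.7, 11.6 and 4.9 at 12, 18 and 24 months. In each aged group 2 of 5 libraries had 0 reads.

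*Il1rn* encodes the IL-1 receptor antagonist. The young libraries had 363.9, 238.3, 329.7, 316.8 and 303.6 normalized counts, and the 12-month libraries had 373.2, 384.1, 373.9, 384.8 and 469.0, so that all 5 lay above the young group. At 18 months the range was 306.5 to 505.3 and at 24 months it was 344.6 to 442.3, and 4 of 5 libraries lay above every young one at each of these ages. The log2 differences from the young group were 0.36 (95% interval 0.05 to 0.67, limma adjusted p = 0.414), 0.46 (0.15 to 0.77, adjusted p = 0.291) and 0.38 (0.07 to 0.69, adjusted p = 0.363). None of the 3 passed the adjusted threshold.

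**Figure D3:**
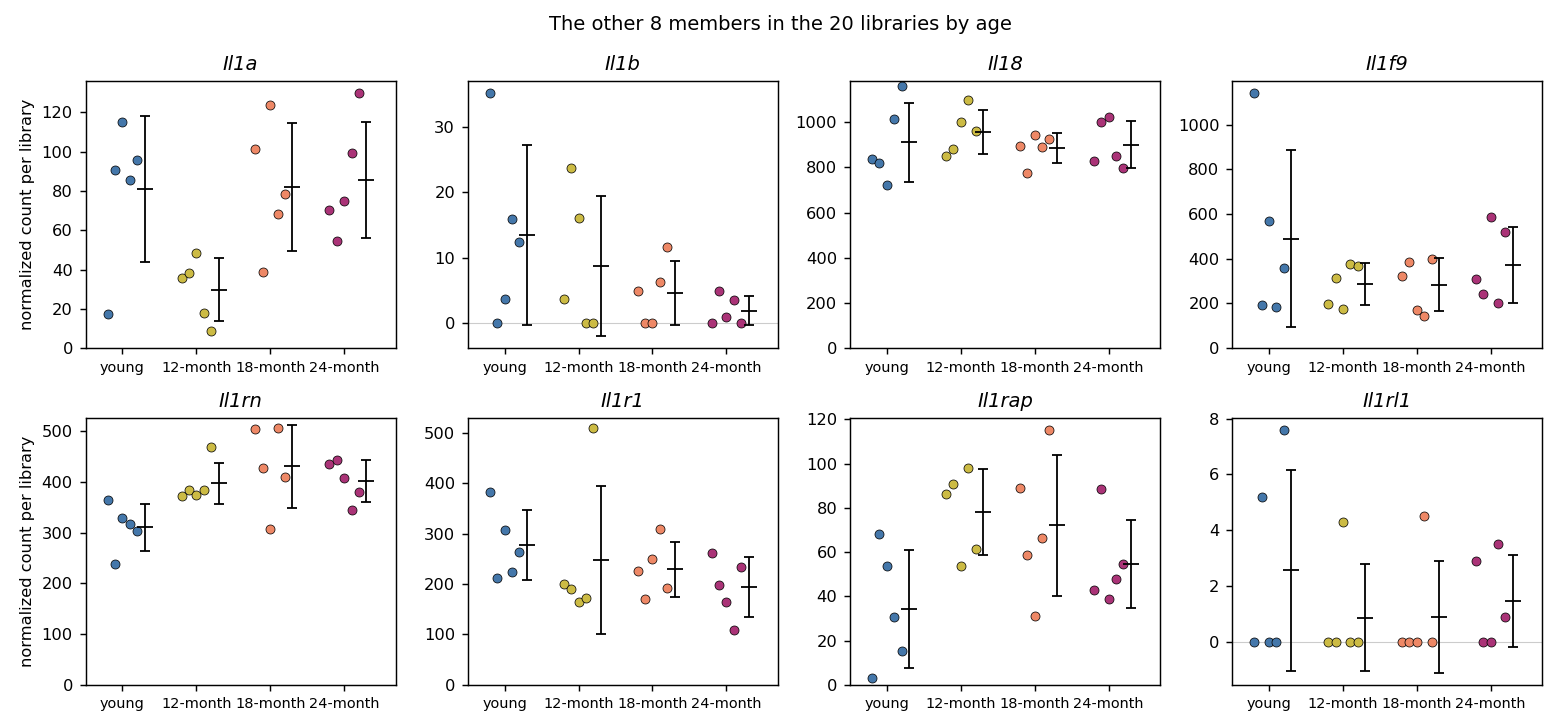
Normalized counts per library by age group for the other 8 members, with the mean and SD of 5 libraries as a black bar. *Il1a* is lowest at 12 months, and young replicate 1 (the first young point) is low for *Il1a* and *Il1rap* and high for *Il1f9*. *Il1rl1* is near 0, and *Il1b* runs from 0 to 35.1.

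Among the receptors, *Il1r1* encodes the signalling receptor of IL-1. Its normalized counts were 212.1 to 382.6 in the young libraries, 165.0 to 509.7 in the 12-month, 170.1 to 309.1 in the 18-month and 109.6 to 262.3 in the 24-month libraries. The log2 differences were -0.28 (95% interval -0.83 to 0.27), -0.27 (-0.82 to 0.27) and -0.55 (limma adjusted p = 0.501). *Il1r1* per *Il1r2* within a library had a median ratio of 2.26 in the young, 6.41 in the 12-month, 13.0 in the 18-month and 6.75 in the 24-month group. The young ratios ran from 1.64 to 6.27, the last in the replicate with the low *Il1r2*. The 18-month ratios, from 7.36 to 13.4, lay above them, whereas the 12-month ratios (2.93 to 9.83) and the 24-month ratios (4.07 to 49.2) overlapped with them. How many other gene pairs separate in this way was not counted. The denominator *Il1r2* was itself called lower at 18 months, so the ratio is not a separate result. Other ratios between members were formed too and are not reported here.

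*Il1rap* encodes the accessory subunit that completes the receptors of IL-1, IL-33 and IL-36. The young libraries had 3.3, 68.2, 53.9, 30.7 and 15.2 normalized counts, and the 12-month libraries had 86.4, 90.8, 53.6, 98.2 and 61.2. At 18 months they had 89.0, 58.6, 31.0, 66.3 and 115.1, and at 24 months 42.9, 88.6, 38.8, 47.9 and 54.6. The young values overlapped with those of each aged group. The log2 differences from the young group were 1.67 (95% interval 0.62 to 2.72, limma adjusted p = 0.189), 1.47 (0.42 to 2.51, adjusted p = 0.363) and 1.13 (0.08 to 2.18, adjusted p = 0.448). The lowest young library, replicate 1, held 3 reads. With 1 library left out at a time, the differences ran from 1.04 to 2.05, from 0.84 to 1.84 and from 0.51 to 1.51.

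*Il1rl1* encodes ST2, the receptor of IL-33, and was barely detected. Over the 20 libraries it had 32 reads. The young libraries had 0, 7, 0, 0 and 8 reads, and the other groups had 4, 5 and 8 reads in all. At this depth no difference in *Il1rl1* between ages was detectable. Mast cells, innate lymphoid cells and regulatory T cells are known to express ST2. Of 10 markers of these cells 2, *Kit* and *Rora*, were tested, with 0 called, and the others were too low to test. *Kit* and *Rora* averaged 1036 and 2325 in the young group, far above the other markers, and which cells they came from was not tested. Among the low ones, *Foxp3* and *Klrg1* were at 0 in every library, whereas *Cpa3* and *Tpsb2* had reads and moved in opposite directions. From the youngest to the oldest group *Cpa3* averaged 1.76, 13.1, 8.97 and 7.37, and *Tpsb2* averaged 9.22, 2.58, 0.358 and 2.46.

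Counted over the 8 tested members, 0 were called in 12-month vs. 2-month, where 0.532% of all tested genes were called. In 18-month vs. 2-month 2 were called (1 higher, 1 lower) against 0.673% of all genes, and in 24-month vs. 2-month 2 were called (1 higher, 1 lower) against 0.78%. Between aged groups 0 were called, against 0.00886% in 18-month vs. 12-month, 0.195% in 24-month vs. 12-month and 0% in 24-month vs. 18-month. At an unadjusted limma p under 0.05 the members numbered 4, 4 and 5 against the young group, where 9.56%, 7.18% and 9.97% of all genes passed. Between aged groups they numbered 2 (7.43% of all genes) in 18-month vs. 12-month, 2 (14.7%) in 24-month vs. 12-month and 0 (5.31%) in 24-month vs. 18-month. Against the young group, libraries of the 2 ages did not overlap for 1 member at 12 months (*Il1rn*, 1.98% of all genes), 0 at 18 months (2.05%) and 1 at 24 months (*Il33*, 2.81%). *Il1a* did not overlap in 24-month vs. 12-month, where the share over all genes was not counted. The median log2 difference of the 8 was -0.10, 0.06 and 0.12 at 12, 18 and 24 months, beside -0.01, -0.001 and 0.005 over all genes tested, and 4 were higher and 4 lower at each age. The 3 comparisons share the young libraries.

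**Figure D4:**
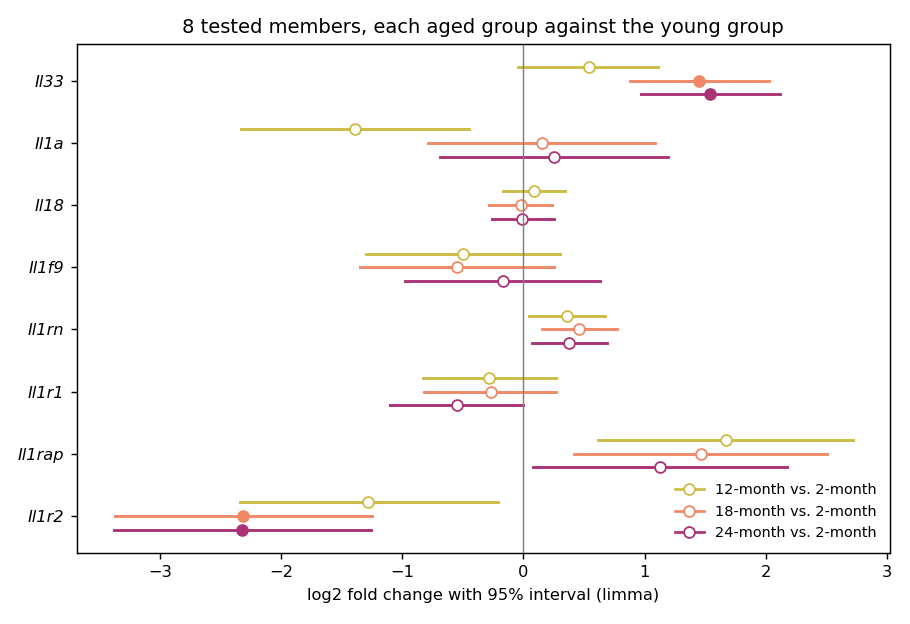
Log2 fold changes of the 8 tested members in each aged group against the young group, with 95% intervals from limma. Filled points passed the adjusted threshold, which *Il33* and *Il1r2* did at 18 and 24 months, and open points did not.

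Of the family's other receptors, *Il18r1*, the ligand-binding receptor of IL-18 and the neighbour of *Il1rl1*, was called higher in 18-month vs. 2-month. Its normalized counts were 89.9, 52.5, 53.0, 46.6 and 89.2 in the young libraries and 125.6, 212.3, 154.8, 130.8 and 98.6 at 18 months (log2 1.12, 95% interval 0.57 to 1.67, limma adjusted p = 0.0416). These 2 ages did not overlap, as was so for 2.05% of all genes. At 12 and 24 months the log2 differences were 0.76 (adjusted p = 0.293) and 0.72 (adjusted p = 0.305). The 12-month libraries, at 93.8 to 136.8, did not overlap with the young ones either (1.98% of all genes), whereas the 24-month libraries did. Its partner *Il18rap* had no reads at 12 and 24 months and at most 6 reads in a library at 18 months. *Il1rl2*, the receptor of the IL-36 ligands, averaged 86.6 ± 76.1 in the young group and 39.1 ± 18.8 at 24 months (log2 -0.91, -1.86 to 0.05, adjusted p = 0.528). Of 6 other receptors 4 were tested, and 1 was called, at 18 months. Of the other ligands 1 was tested, *Il1f5*, the gene of the IL-36 receptor antagonist, with a log2 difference of -0.60 at 24 months (-1.47 to 0.27, adjusted p = 0.679).

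Below the receptors, 24 of 27 signalling genes were tested and 0 were called against the young group, with a median log2 difference of -0.15, -0.05 and 0.06 at 12, 18 and 24 months. *Nfkbiz*, an NF-kappaB cofactor that IL-1 signalling induces, was called in 24-month vs. 12-month. Its normalized counts were 911.8, 944.4, 977.1, 1232.6 and 931.5 at 12 months and 1410.0, 1419.7, 1674.4, 1523.7 and 2139.3 at 24 months (log2 0.70, 95% interval 0.42 to 0.98, limma adjusted p = 0.0315). Every 24-month library lay above every 12-month one, and how many of all genes did so was not counted. The young libraries, at 1103.9 to 1537.7, overlapped with both groups, and the log2 difference from them at 24 months was 0.35 (adjusted p = 0.355). *Tollip*, an inhibitor of IRAK kinases, differed most among signalling genes at 24 vs. 2 months without a call (log2 0.61, -0.26 to 1.48, adjusted p = 0.678).

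Genes that mature the ligands gave 0 calls among 12 tested of 21. *Nlrp1b*, an inflammasome sensor, differed most at 24 vs. 2 months (log2 -0.79, 95% interval -1.97 to 0.39, limma adjusted p = 0.693). *Nlrp3* was at 0 in all young, 12-month and 24-month libraries. At 18 months it was at 0 in 3 libraries and reached 49.3 (42 reads) in the highest. *Casp1*, the caspase that cuts IL-1 beta and IL-18, was chosen after its values were seen, and its log2 difference at 18 months was 1.35 (0.27 to 2.43, adjusted p = 0.504). Genes that IL-1 induces were mostly low, with 5 of 20 tested and 0 called, and *Csf2* and *Saa3* at 0 in every library. Among them *Zc3h12a*, which encodes an RNase that degrades cytokine transcripts, differed most at 24 vs. 2 months (log2 0.80, 0.05 to 1.55, adjusted p = 0.457). The summed count of the 20 genes was 858.7 in 18-month replicate 5, against 121.0 to 376.4 in the other libraries. Of 12 partners of IL-33 in type 2 immunity 5 were tested and 0 were called. *Il4*, *Il5* and *Il13* were at 0 in every library, and *Areg*, the growth factor amphiregulin, averaged 35.2 ± 12.5 in the young group and 63.6 ± 32.2 at 24 months (log2 0.71, -0.20 to 1.63, adjusted p = 0.627).

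Other cell types were read from their markers. Of 11 tested immune cell markers 0 were called, and 9 were lower and 2 higher in 24-month vs. 2-month. *Mrc1*, a macrophage mannose receptor, differed most among them (log2 -1.98, 95% interval -3.54 to -0.42, limma adjusted p = 0.34). The summed count of 17 immune markers was 1482 to 2520 in the young libraries and 1090 to 1743 at 24 months. Most of that sum was *Itgam*, which averaged 1217 in the young group and 867.3 at 24 months. At the same ages *Ptprc* averaged 24.0 and 10.2 and *Csf1r* 43.8 and 22.3. At 12 months the immune sum was 1185 to 1926, and at 18 months it was 1227 to 2237, with replicate 5 highest. The largest 24-month vs. 2-month differences in the remaining lists were not called either. They were log2 -0.34 for *Kit* (mast and lymphoid cells), -0.99 for *Kdr* (vessels), 0.23 for *Ncam1* (Schwann cells and nerves) and 0.80 for *Pmel* (melanocytes). In the lists of early stress response and of corneal epithelium they were -0.93 for *Atf3* and -0.29 for *Tkt*. The summed count of the 4 melanocyte markers was 1047 in 12-month replicate 3 and 44.2 to 132.5 in the other libraries. The part of immune, vessel, nerve and pigment cells in the member values was not tested.

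Among the genes whose log2 values followed *Il33* most closely over the 20 libraries were *Adam28* (Pearson r = 0.87), *Sertad3* (0.781), *Prdm1* (0.757) and *Ptpn22* (0.756). *Adam28*, a membrane metalloprotease, averaged 391.9, 496.0, 725.1 and 683.5 from the youngest to the oldest group, and *Ptpn22*, a phosphatase of lymphocyte signalling, averaged 77.4, 125.7, 215.1 and 225.1. Closest to *Il1r2* were *Nid1* (0.802), *Apela* (0.793), *Sparcl1* (0.788), *Sparc* (0.772) and *Med12l* (0.764). *Nid1* encodes the basement membrane protein nidogen 1, and *Sparc* encodes a secreted matrix protein that averaged 882.4 in the young group and 215.2 at 24 months. The 20 libraries share their age groups and their normalization, so these likenesses are descriptions without a test.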

How the data were processed

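Libraries were made from an oligo-dT primer with a Lexogen kit, so reads come from the 3′ ends of transcripts. Per the methods and labels, the authors used cutadapt for trimming, STAR for alignment to GRCm38, HTSeq for counting and DESeq2 for normalization. They deposited each library as log2(normalized count + 1), from which whole read counts came back for 100% of the values checked, within 0.02 reads. The authors' own fold changes and p-values were deposited too and were not used.

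One limma 3.58.1 fit (R 4.3.3) with a mean per age and a variance trend covered all 20 libraries, for the 11288 genes whose normalized counts averaged 10 or more, and was tested on simulated data. Replicates are separate mice, with 1 library each. Other steps used Python 3.11.15, numpy 2.4.6, pandas 2.3.3, scipy 1.17.1 and matplotlib 3.10.9.

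The members and gene lists were chosen with earlier results of these data known. All members were named, and from the other lists the genes called in any comparison and the gene with the largest 24-month vs. 2-month difference. Other genes, such as *Casp1*, *Il18rap*, *Cpa3*, *Tpsb2*, *Itgam*, *Ptgds*, *Nlrp3* and those given as being at 0 reads, were chosen after their values were seen. For the called members, the 5 genes with the highest Pearson r over the 20 libraries were taken, of which 1 is not reported here. Positions and promoters came from RefSeq GRCm38.p6 and exon overlaps from GENCODE. Alternatives were quantile normalization, no filter, a filter at 50, a fit of only the 2 groups, the replicate block, pseudocounts of 0.1 and 10, voom on whole reads, no fold threshold or 1.5-fold, and leaving out each library.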

Additional observations from a re-analysis of the deposited data

Results flagged for a closer look

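Within each age, the highest and lowest library of every member was compared with the rest of its group by Dixon's test on log2 values. Of 40 groups, 6 held a library far from the other 4, and chance marks about 1 in 20 groups. *Il1a* was lowest in young replicate 1, at 17.5 normalized counts against 85.8 in the next. *Il1r2* was lowest in young replicate 4, at 35.0 against 115.7. *Il1rn* and *Il1r1* were highest in 12-month replicate 5, at 469.0 against 384.8 and at 509.7 against 199.5. *Il1rl1* was marked in 12-month replicate 3, at 4.3, and in 18-month replicate 4, at 4.5, because the other 4 libraries of each age had 0 reads.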

How the results depend on the processing

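The count of members called was 0, 2 and 2 at 12, 18 and 24 months against the young group and 0 between aged groups. It fell to 1 (*Il33*) at 18 months with no filter on low values and with voom, and at 24 months with no filter and with a fit of only the 2 groups, where the adjusted p of *Il1r2* was 0.0651, 0.0683, 0.0551 and 0.0671. Leaving out 1 library at a time gave 0 to 1 members in 12-month vs. 2-month, 1 to 2 in 18-month vs. 2-month, 1 to 2 in 24-month vs. 2-month and 0 to 1 in 24-month vs. 12-month. *Il1a* was called in the first and *Il1a* or *Il33* in the last. *Il33* was called at 18 and 24 months under every alternative. Near 0, *Il18* at 24 months became 0.01 with quantile normalization and 0.0 with voom, and *Il1r2* in 24-month vs. 18-month became 0.07 with a pseudocount of 10.

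Leaving out 1 library also turned the sign of log2 differences near 0, over these ranges: *Il18* -0.10 to 0.07 (18 vs. 2 months), -0.08 to 0.09 (24 vs. 2) and -0.03 to 0.06 (24 vs. 18), *Il1a* -0.33 to 0.39 (18 vs. 2), -0.23 to 0.43 (24 vs. 2) and -0.14 to 0.27 (24 vs. 18), *Il1f9* -0.21 to 0.16 (18 vs. 12) and -0.44 to 0.22 (24 vs. 2), *Il1r1* -0.11 to 0.30 (18 vs. 12) and -0.39 to 0.03 (24 vs. 12), *Il1r2* -0.32 to 0.52, *Il1rap* -0.40 to 0.06 (18 vs. 12), *Il1rn* -0.02 to 0.08 (24 vs. 12) and *Il33* -0.21 to 0.25 (24 vs. 18). The cause was not tested.

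With the replicate block the counts were again 0, 2 and 2. Over 30 pairs of libraries with the same number, deviations from the group means correlated at -0.303 to 0.159, and 3 pairs were over 0.1, so the numbers do not pair the samples. Depth limits *Il1b* and *Il1rl1*.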
